A study of Mus musculus with 20 samples.

Results

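The genes described here encode the nuclear subunits of the oxidative phosphorylation system, 85 protein-coding genes of the 35580 genes that the series measures. They were chosen by symbol alone (Nduf with a, b, c, s or v and a number, Sdha to Sdhd, Uqcr, Cox4 to Cox8, and Atp5), so no measured value entered the choice. Complex I accounts for 35 of them, complex II for 4, complex III for 8, complex IV for 20 and complex V, the ATP synthase, for 18. A further 11 genes of the same naming pattern that are not annotated as protein-coding were left out. Cox7a2l, a factor of respiratory supercomplex assembly, and Atp5s match the pattern without being structural subunits and were kept.

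The 20 libraries come from male mice aged 13.5 months, labelled C57BL/6J. They form 4 groups of 5: WT and miR-324-null, each for hippocampus and for neocortex (cerebral cortex in the labels). The null mice carry a CRISPR deletion of the Mir324 locus in all cells, and no other allele or treatment is given for either genotype. The deletion arose on a mixed background (C57BL/6 with CBA/ca) and was moved to C57BL/6J by backcrossing. Repeated crosses of heterozygous animals then gave a WT line and a miR-324-null line. Effects of the deletion and of other differences between these lines cannot be told apart. The libraries measure mRNA and not the mature microRNA, so the labels could not be checked against the deleted gene. The labels number the samples 1 to 5 in each group without tying a number to a mouse, and the p values measure the spread between these samples.

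Oxidative phosphorylation couples the oxidation of nutrients to the synthesis of ATP in the inner mitochondrial membrane. Complexes I and II feed electrons from NADH and succinate to ubiquinone, complex III passes them to cytochrome c, complex IV reduces oxygen, and the ATP synthase uses the resulting proton gradient. All but complex II combine nuclear subunits with a few core subunits encoded by mitochondrial DNA, and neurons depend on the pathway for the cost of synaptic transmission and ion pumping. Several complex IV subunits exist as paired forms, a common form and a form typical of muscle, testis or low oxygen.

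The estimated counts of a sample, which kallisto assigns to transcripts and which were summed per gene, came to between 12752439 and 19617765. Levels are given in TPM, which is scaled to transcript length and allows genes to be compared with each other, and differences were fitted on counts. Markers of the dissected tissues separated the libraries: the summed TPM of 7 hippocampus genes was 111 to 205 in the hippocampus and 34.5 to 92.4 in the neocortex, and that of 7 neocortex genes was 95.4 to 165 and 345 to 589. Choroid plexus genes varied within groups, with summed TPM of 38.4 to 6945 in WT hippocampus, and striatum genes reached 122 to 298 in WT neocortex and 202 to 505 in miR-324-null neocortex. Whether they had a part in the differences below was not tested. In a bulk sample, fewer cells of a type and less RNA per cell cannot be told apart.

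The subunit genes took between 2.47% and 3.06% of all TPM of a sample, 2.68% on average. Atp5b, the catalytic beta subunit of the ATP synthase, was the most abundant, at 1731 ± 140 TPM (SD, n = 20 samples). Next came 4 complex IV genes of the common form, with Cox4i1 at 1267 ± 60.5 TPM, Cox8a at 1185 ± 87.9 TPM, Cox6a1 at 978 ± 67.9 TPM and Cox6c at 852 ± 52.3 TPM. The lowest sample of Atp5b (1546 TPM) lay above the highest of Cox4i1 (1368 TPM). The ranges of Cox4i1 and Cox8a overlapped, as did those of Cox8a (1039 to 1331 TPM) and Cox6a1 (848 to 1063 TPM).

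Within complexes I, II and III the genes spanned less than an order of magnitude. Complex I ran from Ndufa5 (451 TPM) down to Ndufb4 (86.7 TPM), complex II from Sdha (279 TPM), the flavoprotein of succinate dehydrogenase, to Sdhd (95.7 TPM), one of its membrane anchors, and complex III from Uqcrh (512 TPM), the hinge protein, to Uqcrfs1 (108 TPM), the Rieske iron-sulfur protein. Ndufb4 shares its sequence with a processed pseudogene listed at a higher mean level (Ndufb4c, 198 TPM), so its low place depends on how kallisto divided their reads. A gap then separated these genes from 10 others, all below the lowest sample of Ndufb4 (74.2 TPM). Of the 10, 8 are the alternative forms of complex IV subunits: Cox6a2 (18.2 ± 5.03 TPM), Ndufa4l2 (10.2 ± 2.5), Cox6b2 (10.1 ± 3.42), Cox7a1 (7.75 ± 2.33), Cox8b (3.68 ± 4.64), Cox4i2 (3.58 ± 0.871), Cox7b2 (0.867 ± 0.527) and Cox8c, which was listed at 0 in all 20 samples. The others were Atp5s (23.1 ± 3.9 TPM) and a second annotated Atp5o gene, which overlaps the common one on chromosome 16 and was listed at 0 in 16 of 20 samples.

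**Figure D1:**
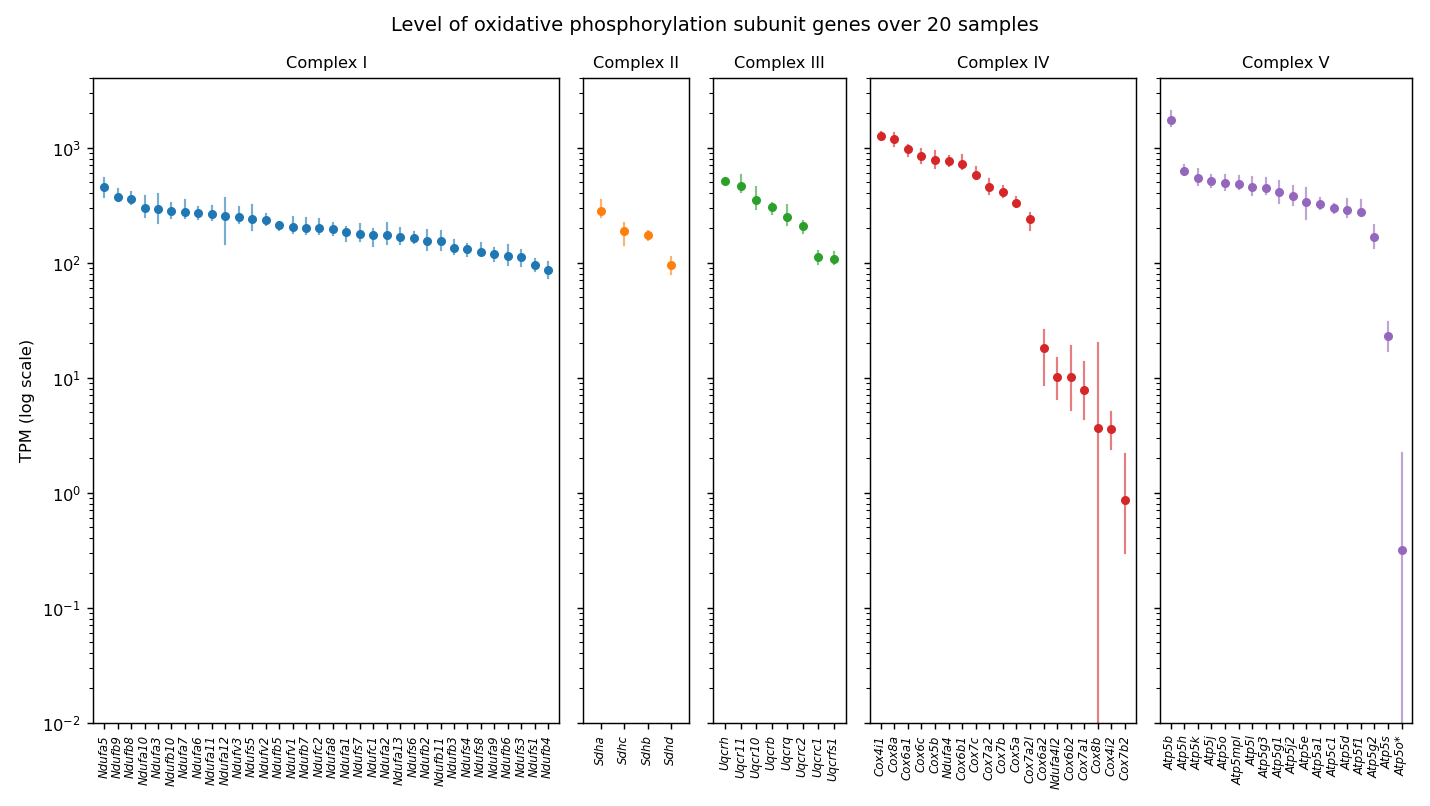
Level in TPM (log axis) of the subunit genes by complex. Points are means over 20 samples and lines run from the lowest to the highest sample, with 0 drawn at 0.01. Cox8c, at 0 in all samples, and 1 gene of complex I are not drawn, and Atp5o* is the second annotated Atp5o gene. Most genes lie between 86.7 and 1731 TPM, and the alternative complex IV forms lie at 18.2 TPM and below.

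The 13 subunits encoded by mitochondrial DNA had a summed level of 236879 ± 15788 TPM in WT hippocampus, against 27072 ± 807 TPM for the 85 nuclear genes together (SD, n = 5). Transcripts of mitochondrial DNA are captured by a library for polyadenylated RNA to a varying degree, so this sum is given for scale only.

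Nuclear subunit genes were then compared between genotypes. In the hippocampus their summed level was 26603, 27383, 27431, 25938 and 28005 TPM in the WT samples and 29702, 30568, 26643, 26816 and 26316 TPM in the miR-324-null samples. The null samples 1 and 2 lay above all WT samples and the other null samples lay within the WT range, so that the groups overlapped. On the log2 scale the group means differed by 0.05, with a within-group SD of 0.08. In the neocortex the sums were 26226, 25620, 25751, 26035 and 24728 TPM in WT and 26132, 25703, 27028, 25365 and 28162 TPM in miR-324-null samples, a log2 ratio of 0.04 with an SD of 0.05. The groups overlapped there too.

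Of the 85 genes, 81 passed edgeR's filter on low counts and were tested (Cox7b2, Cox8b, Cox8c and the second Atp5o gene did not). In the hippocampus 0 of the 81 differed between genotypes in edgeR's quasi-likelihood test (adjusted p value of 0.05 or less), beside 0.115% of all 14796 genes tested. In the neocortex 0 of the 81 differed, beside 0.315% of 14930 genes. At these backgrounds fewer than 1 call among 81 genes would be counted, so the absence of calls does not set the subunit genes apart. At an unadjusted p value under 0.05, hippocampus gave 6 subunit genes of 1635 in all and neocortex gave 3 of 1822. Every other setting listed in the processing section, DESeq2 included, also gave 0 calls.

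The fitted differences were small. Median log2 differences of the 81 genes (null minus WT) were 0.047 in the hippocampus, with a range of -0.27 to 0.48, and 0.022 in the neocortex, with a range of -0.20 to 0.69, and the medians of all genes tested were 0.001 and 0.005. Without the miR-324-null hippocampus samples 1 and 2 the hippocampal median was -0.054. In these 2 libraries the median subunit gene stood 0.16 and 0.21 above the WT mean on the log2 scale, against -0.07 to -0.05 in the other null hippocampus samples. Other short mRNAs were high in the same libraries, by 0.11 and 0.16 for the cytosolic ribosomal proteins and by 0.13 and 0.15 for the other protein-coding genes with an effective length under 1000 bases, while longer genes stood at -0.02 and -0.02. Most subunit genes are of this short kind: 68 of the 81 have an effective length under 1000 bases, and their median is 473 bases, against 2305 for all genes tested. Whether length had a part in the difference of the subunit genes was not tested.

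The 5 genes with the smallest p values in the hippocampus, none of which passed the adjustment, were Ndufa9, Ndufa12, Uqcrc2, Ndufa10 and Sdhd. Ndufa9, an accessory subunit of complex I, was at 110, 116, 114, 122 and 113 TPM in WT and at 123, 129, 124, 135 and 121 TPM in null samples. All null samples but sample 5 lay above the WT range, and the log2 difference was 0.14 ± 0.05 (SE, adjusted p = 0.33). Uqcrc2, a core protein of complex III, differed by 0.11 ± 0.04 (adjusted p = 0.37), Ndufa10, an accessory subunit of complex I, by 0.14 ± 0.06 (adjusted p = 0.39), and Sdhd by 0.14 ± 0.06 (adjusted p = 0.43). In the neocortex these 4 genes differed by 0.07, 0.04, 0.01 and 0.08.

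In the neocortex the 5 smallest p values belonged to Cox7a2l, Cox7a1, Ndufa12, Ndufs1 and Atp5k. Cox7a1, the muscle form of subunit VIIa, was listed at 5.83, 9.16, 8.03, 4.77 and 4.37 TPM in WT and at 10.2, 8.75, 13.7, 9.24 and 11.1 TPM in null neocortex. Null sample 2 lay below the highest WT sample and the others lay above it, and the log2 difference was 0.69 ± 0.24 (SE, adjusted p = 0.28). It rests on 9 to 28 estimated counts per sample, and in the hippocampus the same gene differed by 0.08 ± 0.23 (adjusted p = 0.94). Ndufs1, the largest core subunit of complex I, differed by 0.08 ± 0.04 (adjusted p = 0.42), and Atp5k, a membrane subunit of the ATP synthase, by 0.09 ± 0.05 (adjusted p = 0.49).

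Ndufa2, the normaliser of the study's qRT-PCR, differed by 0.01 ± 0.12 in the hippocampus and by 0.02 ± 0.07 in the neocortex (adjusted p = 0.99 and 0.96). On chromosome 11, which also carries Mir324, the subunit genes are Uqcr10, Uqcrq, Atp5g1 and Atp5h. Their log2 differences were 0.10, -0.01, -0.03 and 0.09 in the hippocampus and 0.10, 0.03, -0.01 and 0.05 in the neocortex, and none passed the adjustment.

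**Figure D2:**
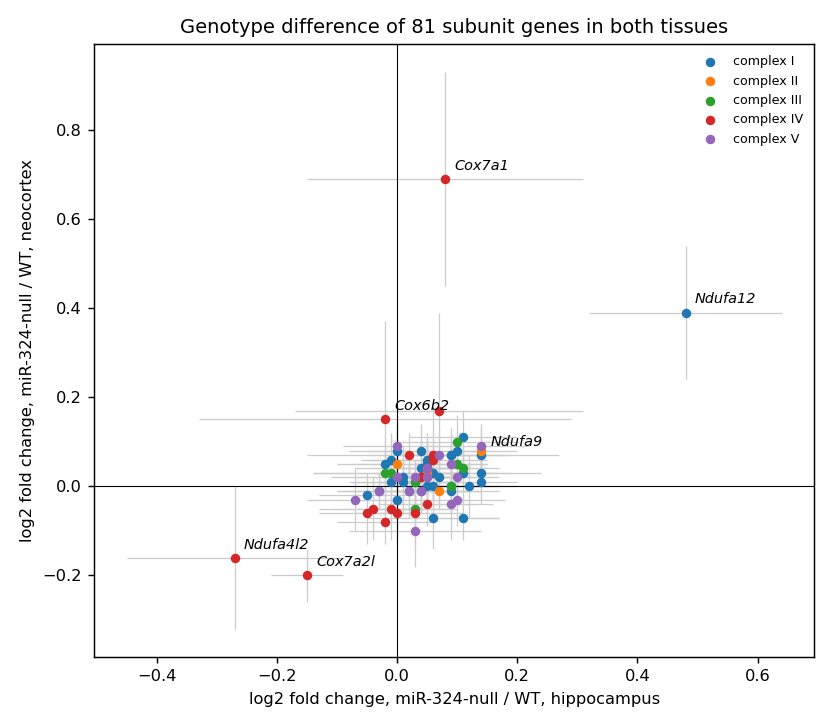
Log2 difference between genotypes (miR-324-null / WT) of 81 subunit genes, hippocampus on the x axis and neocortex on the y axis, in log2 units. Points are genes coloured by complex and grey lines are 1 SE either way. Most genes lie near 0 on both axes. Ndufa12 (0.48 and 0.39), Ndufa4l2 (-0.27 and -0.16), Cox7a2l (-0.15 and -0.20) and Cox7a1 (0.08 and 0.69) lie farther out, with adjusted p values of 0.19 to 0.94.

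A microRNA represses mRNAs mainly through sites in the 3′UTR that pair with its seed, bases 2 to 8. To relate the subunit genes to the deleted microRNA, both mature arms are shown with the seed in capitals, as RefSeq gives them on GRCm38.p6. The 5p arm lies at chr11:70012060-70012082 and the 3p arm at chr11:70012095-70012114, on the plus strand.
mmu-miR-324-5p: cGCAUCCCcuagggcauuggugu
mmu-miR-324-3p: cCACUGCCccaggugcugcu
A match of 7 bases to the 5p seed occurred in an annotated 3′UTR of 2 of 84 subunit genes (2.38%) and of 7.77% of all 21010 genes with a 3′UTR. For the 3p seed the shares were 2 of 84 (2.38%) and 13.5%. These shares were not adjusted for the length of the 3′UTRs searched, and subunit transcripts are short. Their median effective length is 473 bases, against 2305 for all genes tested. The 4 matches are in Atp5g1 (both arms), Ndufb8 and Ndufb2, each within an annotated long transcript, and are printed with the match in capitals.
Atp5g1-201, 5p match: cagggagatcaGGGATGCatgggcttaag
Atp5g1-201, 3p match: atcatgaggttGGCAGTGtggctcagtgg
Ndufb8-209, 5p match: ttatgaaataaGGGATGCgtccaagctcc
Ndufb2-205, 3p match: tgatgtggtaaGGCAGTGtcctagggttt
A match is a description of the sequence and not evidence of a site in use. The gene-level log2 differences (null minus WT, hippocampus and neocortex) were -0.03 and -0.01 for Atp5g1, 0.07 and 0.02 for Ndufb8, and 0.04 and 0.04 for Ndufb2.

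Atp5g1 encodes a precursor of the c subunit, which forms the rotating ring of the ATP synthase together with the identical mature products of Atp5g2 and Atp5g3. The gene lies at chr11:96068852-96075670 on the minus strand, and 2 of its 4 transcripts are long (Atp5g1-201, 4715 bases, and Atp5g1-204, 4660 bases) and carry both matches in their 3′UTR. The other transcripts, Atp5g1-202 (596 bases) and Atp5g1-203 (691 bases), hold neither. The following values were singled out after they had been seen and are given without a test.

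The 2 long transcripts together were listed at 7.31, 9.59, 9.52, 8.94 and 7.76 TPM in WT hippocampus and at 2.77, 3.49, 2.9, 2.78 and 3.55 TPM in miR-324-null hippocampus. In the neocortex they were at 7.8, 7.68, 7.7, 7.84 and 7.91 TPM in WT and at 2.44, 2.4, 3.08, 2.29 and 2.46 TPM in null samples. All 10 null samples lay below all 10 WT samples, with means of 8.62 ± 1.04 and 3.1 ± 0.39 TPM in the hippocampus and 7.79 ± 0.0935 and 2.53 ± 0.309 TPM in the neocortex (SD, n = 5). Over all genes tested, the CPM of the genotypes did not overlap for 2.55% in the hippocampus and 2.3% in the neocortex. No such share is given for transcripts. The lower level was thus in the mice without the microRNA, and the labels do not say whether the tissues come from separate mice. Atp5g1 and Mir324 are both on chromosome 11, so the deletion and other alleles linked to it cannot be told apart here. As a share of the estimated counts of Atp5g1, the long transcripts held 15.4% to 18.6% in WT and 5.54% to 6.97% in null hippocampus, and 18.4% to 20.3% and 5.57% to 6.86% in the neocortex. Behind these shares were 289 to 419 estimated counts per WT sample and 94.1 to 146 per null sample.

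The short transcripts together were at 418 ± 17 TPM in WT and 467 ± 39.9 TPM in null hippocampus, where the groups overlapped, and at 338 ± 12.8 and 403 ± 20.6 TPM in the neocortex, where all null samples lay above all WT samples. Counts summed over the whole gene did not differ (adjusted p = 0.91 and 0.98), while edgeR with a transcript-length offset gave log2 differences of 0.14 and 0.18 (adjusted p = 0.62 and 0.25). DESeq2's Wald test with such an offset gave 0.14 and 0.18 (adjusted p = 0.66 and 0.066). With limma on log2(TPM + 1) they were 0.14 and 0.23 (adjusted p = 0.59 and 0.12). The division of the long-transcript reads between Atp5g1-201 and Atp5g1-204 varied among WT samples, at 0.0148 to 7.84 TPM and 0.0653 to 9.48 TPM. In all 10 null samples nearly all of them were on Atp5g1-204 (2.28 to 3.52 TPM), with Atp5g1-201 at 0.00699 to 0.154 TPM. In edgeR fits on single transcripts, 0 of 227 subunit transcripts passed in the hippocampus, beside 0.0291% of all 34338 transcripts tested, and 0 of 229 in the neocortex, beside 0.0249% of 36164. At an unadjusted p value under 0.05 there were 10 and 5, of 1586 and 2263 transcripts in all. In these fits Atp5g1-204 differed by -0.93 ± 0.45 and -0.63 ± 0.78 (adjusted p = 1 and 0.97).

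**Figure D3:**
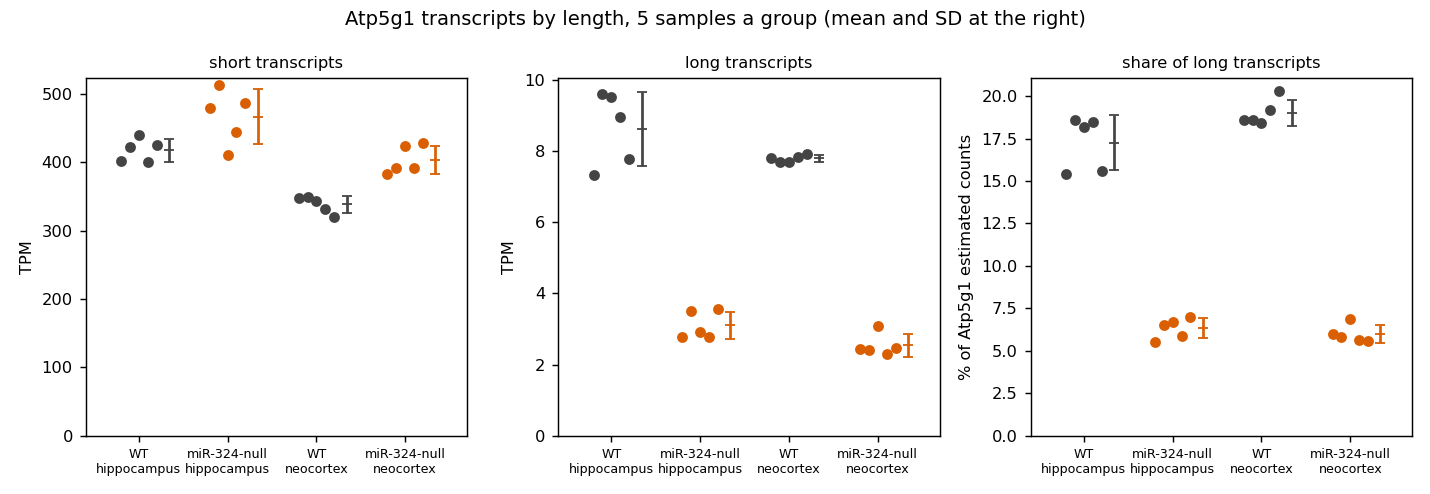
Atp5g1 transcripts by length in the 4 groups, with the short transcripts in TPM (left), the long ones in TPM (middle) and the long ones as a percentage of the gene's estimated counts (right). Dots are samples and bars are mean ± SD (n = 5). The long transcripts lie at 7.31 to 9.59 TPM in WT samples and at 2.29 to 3.55 TPM in miR-324-null samples.

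Short, abundant mRNAs have often been copied into the genome as processed pseudogenes, and reads from such a copy and its parent can be exchanged by the assignment. Of the 85 genes, 24 have a transcript of another gene on the same strand that matches them at 95% identity or more over at least 200 bases, and for 11 such a copy was listed at 1 TPM or more. Among them are Ndufa12 and Cox7a2l, named above for their small p values. The within-group SD of log2 CPM was 0.30 for Ndufa12, the largest of the 81 genes, next to 0.29 for Cox6b2 and 0.24 for Cox6a2, which have no such copy, and 0.04 for Uqcrc2, the smallest. Between same-numbered samples of the tissues, the deviations of Ndufa12 from its group means correlated at 0.85 over 10 pairs of samples, against a median of 0.02 over the 81 genes and 0.05 over all genes. The points share the division of reads with the copy, and the labels do not say that a number is a mouse.

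Ndufa12, an accessory subunit of complex I, was at 318, 302, 175, 164 and 167 TPM in WT hippocampus and at 356, 362, 281, 335 and 319 TPM in null hippocampus. In the neocortex it was at 254, 275, 152, 150 and 145 TPM in WT and at 277, 273, 254, 247 and 321 TPM in null samples. WT samples 3, 4 and 5 were low in both tissues, and WT samples 1 and 2 lay within the null range. The log2 differences were 0.48 ± 0.16 and 0.39 ± 0.15 (SE, adjusted p = 0.33 and 0.31). The processed pseudogene Gm15920 (chr5:130188395-130188796, 99.5% identity over 402 bases) had the mirror pattern, at 0, 18.8, 289, 242 and 293 TPM in WT hippocampus and 36.5, 48.7, 279, 260 and 322 TPM in WT neocortex. It was at 2.37 to 80.9 TPM in null hippocampus and at 32 to 92.2 TPM in null neocortex. With the counts of the copy added to the parent, Ndufa12 differed by 0.14 ± 0.07 between genotypes in the hippocampus and by 0.03 in the neocortex (adjusted p = 0.49 and 0.92).

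Cox7a2l was at 262, 270, 255, 267 and 256 TPM in WT and at 239, 260, 232, 233 and 217 TPM in null hippocampus, and at 258, 238, 235, 239 and 225 TPM in WT and 220, 215, 224, 194 and 221 TPM in null neocortex. Null samples were lower but for sample 2 of the hippocampus, which lay within the WT range, and the log2 differences were -0.15 ± 0.06 and -0.20 ± 0.06 (SE, adjusted p = 0.43 and 0.19). Its copy Gm6969 (chr12:24638669-24639010, 98% identity over 342 bases) was at 2.01, 0, 0, 1.5 and 108 TPM in WT hippocampus and at 2.53, 0, 0, 0 and 131 TPM in WT neocortex. In null samples it was at 196 to 276 TPM in the hippocampus and at 227 to 271 TPM in the neocortex, above every WT sample, and WT sample 5 was intermediate in both tissues. The copy's own log2 differences were 3.45 ± 0.84 and 3.13 ± 0.79 (adjusted p = 0.19 and 0.15). With the copy added, Cox7a2l differed by 0.05 and 0.02 (adjusted p = 0.82 and 0.92). Atp5o, the oligomycin sensitivity-conferring subunit of the ATP synthase stalk, has a copy that also followed the sample numbers. This copy, Gm5436 (chr12:84258331-84258973, 97% identity over 643 bases), was at 7.7 to 19.3 TPM in the 10 WT samples. In null samples it was at 0, 9.34, 0.285, 0 and 7.72 TPM in the hippocampus and at 0, 8.07, 0, 0.259 and 9.24 TPM in the neocortex, so samples 2 and 5 were near the WT range in both tissues and samples 1, 3 and 4 near 0. Its log2 differences were -1.96 ± 0.76 and -1.77 ± 0.72 (adjusted p = 0.37 and 0.35). The parent Atp5o, at 433 to 519 TPM in WT hippocampus and 475 to 583 TPM in null hippocampus, differed by 0.10 ± 0.07 (adjusted p = 0.64) and by 0.07 ± 0.07 with the copy added (adjusted p = 0.76).

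With copies added to every gene that has them, 0 of the 81 genes passed in either tissue.

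**Figure D4:**
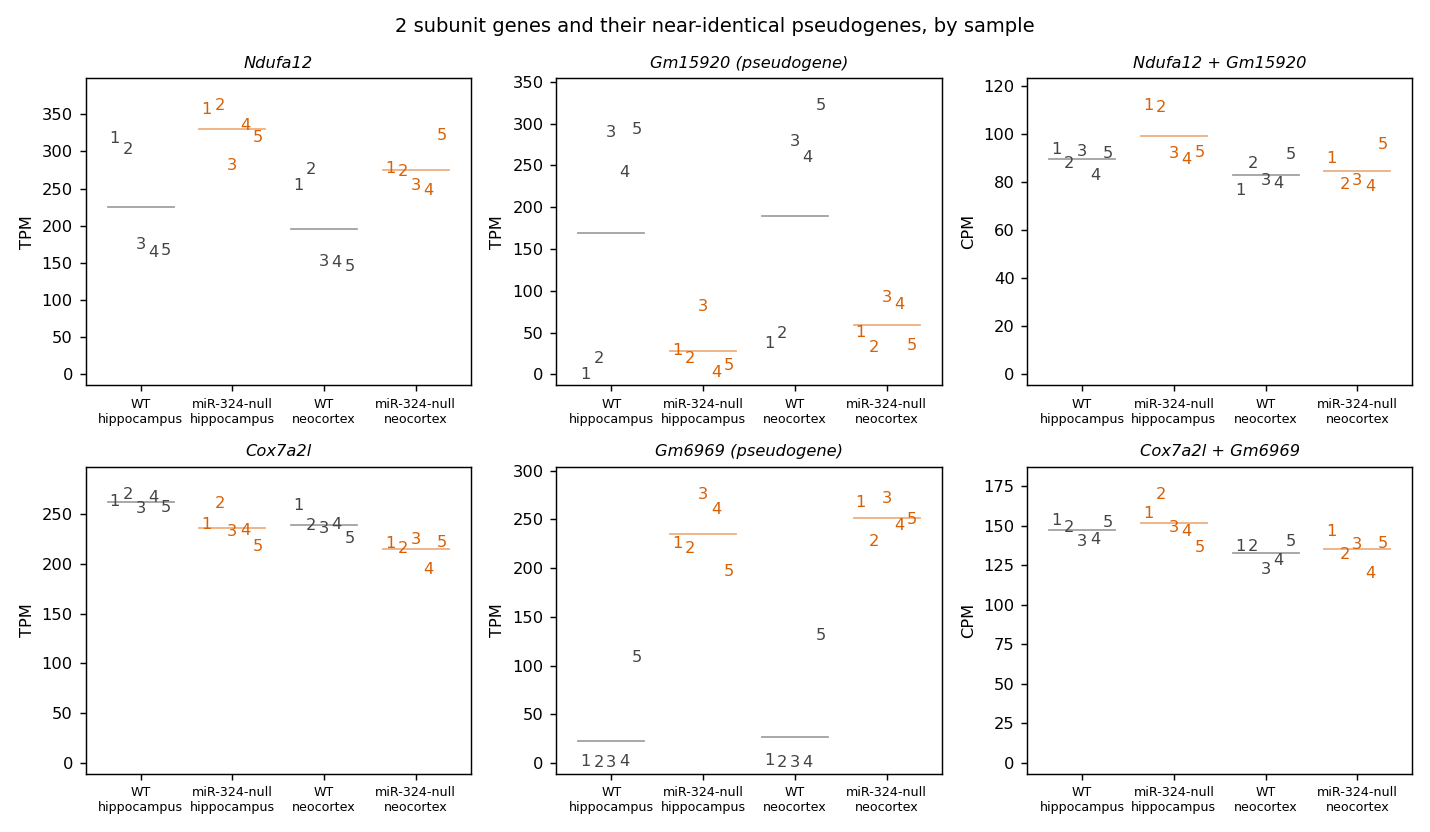
Ndufa12 and Cox7a2l (left, TPM), their pseudogene copies Gm15920 and Gm6969 (middle, TPM) and the sum of each pair (right, CPM) in the 4 groups. Digits mark samples 1 to 5 of a group and lines are group means. Ndufa12 is low and Gm15920 high in WT samples 3, 4 and 5 of both tissues, Gm6969 is high in all null samples, and the sums of the WT and null groups overlap in both tissues.

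The hippocampus was next compared with the neocortex, within each genotype, in a fit of all 20 samples. In WT samples, 18 of the 81 subunit genes (22.2%) were higher in the hippocampus, beside 16.6% of all 15391 genes tested, and 3 (3.7%) were lower, beside 16.9%. In miR-324-null samples, 31 (38.3%) were higher, beside 16.1%, and 1 (1.23%) was lower, beside 16.4%. The share of higher genes in WT is near the background and the share of lower genes is below it in both genotypes. In CPM the tissues did not overlap for 15 higher and 3 lower subunit genes in WT, and for 4 and 1 in null samples. Of all genes tested, 25.9% in WT and 20.8% in null samples did not overlap. A lack of overlap therefore does not set the subunit genes apart. Median log2 differences were 0.109 in WT and 0.156 in null samples, against -0.001 for all genes tested in both. In summed TPM the hippocampus exceeded the neocortex by 0.08 on the log2 scale in both genotypes, with a within-group SD of 0.04 in WT and 0.08 in null samples. The genotypes share no sample, and 15 genes passed in both, of 21 in WT and 32 in null samples. This fit did not pair samples. With a block for the sample number, 16 genes passed in WT, 14 of them among the 21. In null samples 31 passed, 30 of them among the 32.

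The number of genes that passed depended on single libraries. In WT it fell from 21 to 8 without neocortex sample 3, to 10 without neocortex sample 4, to 12 without hippocampus sample 5 and to 13 without hippocampus sample 3. In null samples it fell from 32 to 14 without hippocampus sample 2, to 16 without hippocampus sample 1, to 20 without neocortex sample 4 and to 6 (5 higher, 1 lower) without hippocampus samples 1 and 2, where the median was 0.041. Called in all settings run, the replicate block aside, were Atp5g1, Atp5l, Cox6a2 and Ndufa13 in WT and Atp5e, Atp5g1 and Cox6a2 in null samples.

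In the ATP synthase, 7 of 17 tested genes (41.2%) were higher and 0 lower in WT, with a median of 0.155. Of all genes tested in WT, 16.6% were higher and 16.9% lower. The 3 c-subunit genes Atp5g1, Atp5g2 and Atp5g3 were higher in both genotypes, with medians of 0.245 in WT and 0.246 in null samples. Atp5g1 was at 409, 431, 450, 409 and 433 TPM in WT hippocampus and at 356, 357, 352, 339 and 328 TPM in WT neocortex. All hippocampus samples lay above all neocortex samples, and the log2 difference was 0.30 ± 0.06 (SE, adjusted p = 0.00054). Atp5g2 differed by 0.24 ± 0.08 (adjusted p = 0.023), a call that was lost when the counts of its identical copy Gm10175 were added (0.15 ± 0.07, adjusted p = 0.11). Atp5g3 differed by 0.19 ± 0.07 (adjusted p = 0.034).

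Atp5e, the epsilon subunit of the F1 part, was at 371, 375, 343, 377 and 373 TPM in WT hippocampus and at 325, 294, 290, 302 and 301 TPM in WT neocortex. The groups did not overlap (log2 difference 0.29 ± 0.10, adjusted p = 0.024), and in null samples the difference was 0.43 ± 0.10 (adjusted p = 0.0015). Atp5l, a membrane subunit near the dimer interface, was at 466 to 509 TPM in WT hippocampus and at 387 to 438 TPM in WT neocortex (0.23 ± 0.07, adjusted p = 0.015). The other genes of complex V that were higher in WT were Atp5j2 (0.21 ± 0.08) and Atp5mpl (0.17 ± 0.06). Atp5a1, Atp5b and Atp5c1, which also belong to the F1 part, did not pass in either genotype, and Atp5b differed by 0.01 ± 0.04 in WT (adjusted p = 0.89).

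In complex I, 8 of 35 genes were higher and 2 lower in WT. Calls in either direction made up 28.6% of them, beside 33.5% of all genes tested. Among the 28 accessory subunits 8 were higher and 0 lower (median 0.136), and among the 7 core subunits, which carry the flavin and iron-sulfur centres, 0 were higher and 2 lower (median 0.031). Calls in either direction were 28.6% of each part, and the difference between these parts was not tested. Ndufs1 differed by -0.11 ± 0.04 in WT (adjusted p = 0.042) and by -0.08 in null samples (adjusted p = 0.14). In null samples 15 accessory subunits and 1 core subunit were higher and 0 of either were lower, the core subunit being Ndufs3 (0.21 ± 0.05, adjusted p = 0.0036). These were 53.6% and 14.3% of the parts, beside 16.1% of all genes that were higher in null samples.

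The complex I genes with the largest rise in WT were Ndufc1 (0.30 ± 0.08, adjusted p = 0.0073), Ndufa3 (0.30 ± 0.08, adjusted p = 0.005) and Ndufs5 (0.25 ± 0.08, adjusted p = 0.025). Ndufa3 was at 287, 332, 314, 337 and 301 TPM in WT hippocampus and at 249, 270, 247, 256 and 222 TPM in WT neocortex, without overlap. Most of the TPM of Ndufa3 and Ndufc1 was assigned to transcripts annotated as targets of nonsense-mediated decay, retained introns or processed transcripts. With protein-coding transcripts only, their differences in null samples turned to -0.16 and -0.14 (adjusted p = 0.68 and 0.76). In WT samples the protein-coding transcripts overlapped between the tissues. Ndufc1-201 was at 0.959 to 2.49 TPM in WT hippocampus and 0.659 to 1.89 TPM in WT neocortex. Ndufa3-201 was at 7.5 to 21.5 and 7.82 to 16.3 TPM, and Ndufa3-202 at 5.65 to 13.4 and 6.34 to 14.7 TPM. Neither gene was called in all settings in WT. The other complex I genes that were higher in WT were Ndufb11 (0.24), Ndufb2 (0.18), Ndufa5 (0.17) and Ndufa8 (0.17), each with a SE of 0.06 to 0.08. Ndufs5 lost its call in WT when its copies were added (0.18, adjusted p = 0.067). Ndufa13, an accessory subunit also known as GRIM-19, was at 161 to 188 TPM in WT hippocampus and 145 to 162 TPM in WT neocortex (0.24 ± 0.08, adjusted p = 0.02).

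In complex II the membrane anchors Sdhc (0.19 ± 0.07, adjusted p = 0.049) and Sdhd (0.16 ± 0.06, adjusted p = 0.043) were higher in WT hippocampus, and the catalytic Sdha and Sdhb did not pass. In complex III, 1 of 8 genes (12.5%) was higher in WT, the small subunit Uqcr10 (0.24 ± 0.09, adjusted p = 0.035), and 3 (37.5%) in null samples. Of all genes tested, 16.6% were higher in WT and 16.1% in null samples. The 11 genes of the common form of complex IV gave 0 calls in WT, with 0 at an unadjusted p value under 0.05 and a median of 0.056, and 2 in null samples, Cox6c (0.19 ± 0.07, adjusted p = 0.037) and Cox7c (0.18 ± 0.07, adjusted p = 0.038). Cox7a2l was also higher in null samples (0.21 ± 0.06, adjusted p = 0.013). With copies added, Cox7a2l (0.17 ± 0.06, adjusted p = 0.034) and Cox7c (0.18 ± 0.07, adjusted p = 0.044) kept their calls. Cox6c (0.18 ± 0.07, adjusted p = 0.051) did not.

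**Figure D5:**
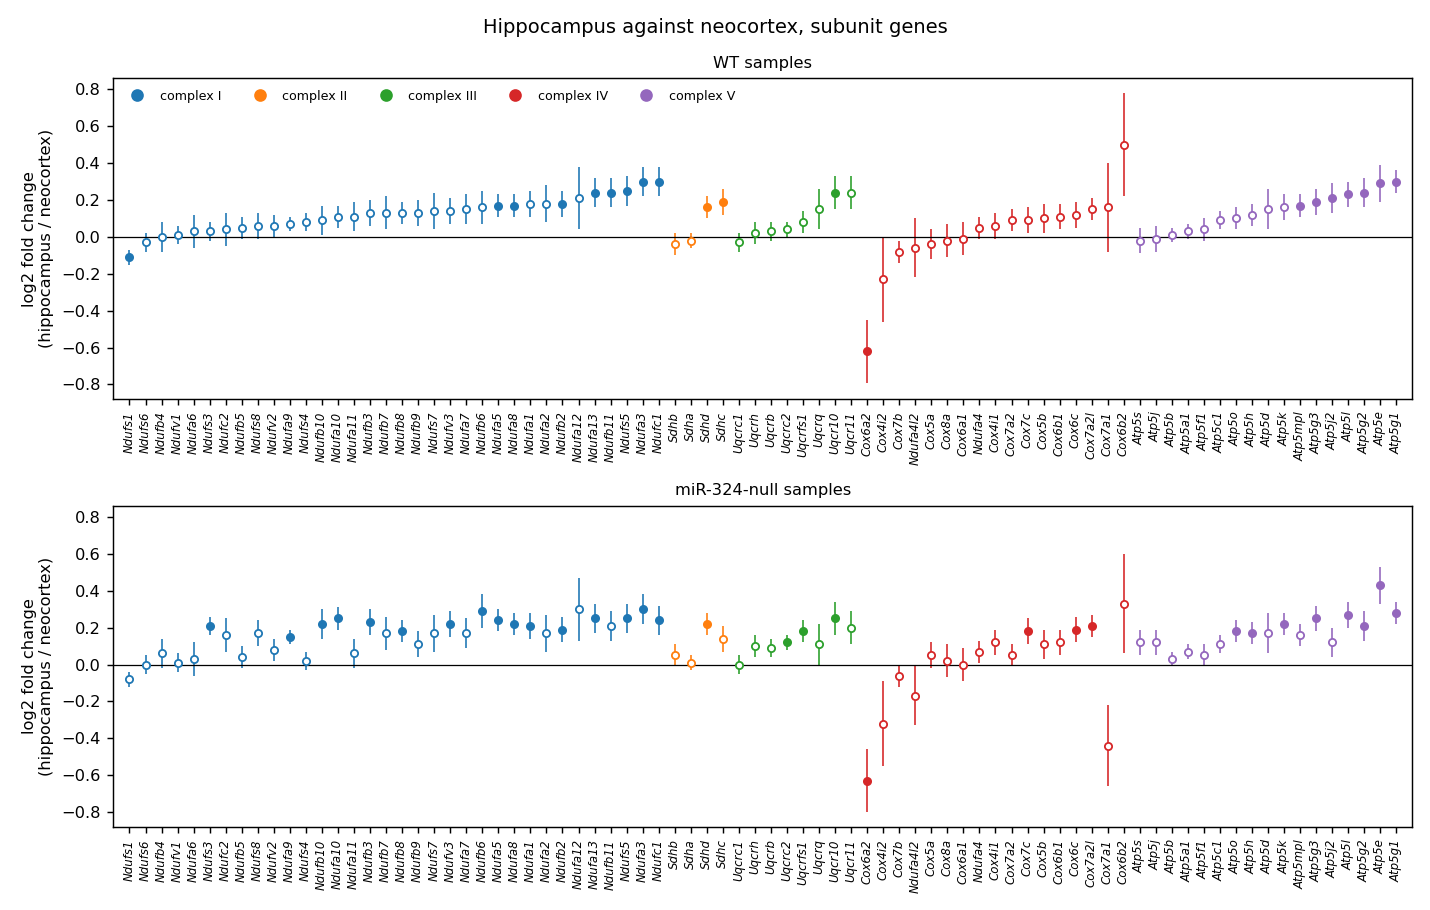
Log2 difference between tissues (hippocampus / neocortex) of all but 1 of the 81 subunit genes in WT (top) and miR-324-null samples (bottom), grouped by complex and ordered by the WT value. Points are estimates, lines are 1 SE either way, and filled points passed at an adjusted p value of 0.05. Atp5g1 (0.30 in WT) is at the high end, and Cox6a2 (-0.62 in WT and -0.63 in null samples) is the lowest filled point in both panels.

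The only complex IV gene called in WT was Cox6a2, the form of subunit VIa typical of heart and skeletal muscle and, in brain, of parvalbumin interneurons. It was at 16.8, 15, 13.9, 8.7 and 13.9 TPM in WT hippocampus and at 20, 22.6, 23.6, 20.7 and 20.9 TPM in WT neocortex. In null samples it was at 17.1, 13.6, 18.9, 10.8 and 11.5 TPM and at 25.5, 21.4, 21.9, 22.2 and 25.9 TPM. The tissues did not overlap in either genotype, and the log2 differences were -0.62 ± 0.17 and -0.63 ± 0.17 (SE, adjusted p = 0.0067 and 0.0061). Across all settings the WT difference lay between -0.72 and -0.49. Markers of parvalbumin interneurons moved the same way: 4 of 5 were lower in WT hippocampus (median -0.60), their summed TPM was 153 to 262 there and 258 to 312 in WT neocortex, and Pvalb differed by -0.80 ± 0.19 (adjusted p = 0.0027). The summed TPM of 6 muscle genes was 8.14 to 12 in WT hippocampus and 14.2 to 17.7 in WT neocortex. Acta1 made up most of it (-0.74 ± 0.13, adjusted p = 9.3e-05), Ttn went the other way at under 1 TPM (1.07 ± 0.29, adjusted p = 0.0068), and over the 4 tested genes the median was -0.01. The part of either in the result was not tested.

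Other gene groups also differed between the tissues. Of 83 cytosolic ribosomal protein genes, which are short and abundant too, 46 were higher and 0 lower in WT hippocampus (median 0.197), and of 1824 other short protein-coding genes 16% were higher and 8.5% lower (median 0.057). Neuron markers were lower in WT hippocampus for 4 of 6 genes, with summed TPM of 3154 to 3602 against 4519 to 5032, and astrocyte markers were higher for 4 and lower for 1 of 6 genes, with summed TPM of 1000 to 1286 against 909 to 998. Excitatory neuron markers were higher for 2 of 4 genes (median 0.24, summed TPM of 2221 to 2668 against 2018 to 2222) and inhibitory neuron markers lower for 2 of 3 (median -0.26, 184 to 232 against 249 to 287). Choroid plexus markers were higher for 4 of 5 genes (median 3.67, 38.4 to 6945 against 18.2 to 73.5) and striatum markers lower for 2 of 6 (median -0.77, 75.4 to 116 against 122 to 298). Their part in the tissue differences of the subunit genes was not tested.

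Whether the genotype difference itself differed between tissues was tested as an interaction. It passed for 0 of the 81 subunit genes, beside 0.0195% of all 15391 genes tested. At an unadjusted p value under 0.05 there was 1 subunit gene of 857 genes in all, Ndufs3, with an interaction of 0.18 ± 0.08 on the log2 scale (adjusted p = 0.87).

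Paired forms of a subunit were compared as shares of their summed TPM, with two-sided exact permutation tests of 5 against 5 samples, whose smallest possible p value is 0.00794. Of 40 tests, over 10 genes and 4 comparisons, 0 had an adjusted p value of 0.05 or less. Tests at this smallest p value had an adjusted p value of 0.063. Even groups without overlap therefore did not pass, and the absence of calls decides nothing about the shares. The alternative forms were a small part of each family in all groups: on average 1.38% to 2.29% for Cox6a2, 1.45% to 2.2% for Cox7a1, 1.22% to 1.53% for Cox6b2, 1.12% to 1.5% for Ndufa4l2, 0.239% to 0.344% for Cox4i2, 0.176% to 0.463% for Cox8b and 0.128% to 0.261% for Cox7b2. The share of Cox6a2 in Cox6a1 + Cox6a2 was 1.38% ± 0.281 in WT hippocampus and 2.12% ± 0.17 in WT neocortex, without overlap (exact permutation test, p = 0.00794, adjusted p = 0.063).

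Among the c-subunit genes, Atp5g1 made up 39.8% ± 1.29 of the summed TPM in WT and 42% ± 1.13 in null hippocampus, and 37.9% ± 0.911 and 41.3% ± 0.698 in the neocortex. The groups did not overlap in either tissue (exact permutation tests, p = 0.00794 and adjusted p = 0.063 in both). Computed from estimated counts in place of TPM, the differences were -0.641 and 0.147 percentage points (exact permutation tests, p = 0.429 and 0.754). The long transcripts described above account for a smaller part of the counts in null samples, and TPM divides by transcript length. Atp5g3 made up 44.9% ± 0.835 in WT and 42.7% ± 0.722 in null neocortex (exact permutation test, adjusted p = 0.063).

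Genes that work with the subunits were counted for the same comparisons. Between genotypes 0 of 13 mitochondrially encoded subunits, 0 of 45 tested assembly factors, 0 of 12 transcriptional regulators of respiratory genes and 0 of 17 genes of pyruvate dehydrogenase and the citric acid cycle passed in either tissue by edgeR. At an unadjusted p value under 0.05 there were, in the same order, 3, 1, 2 and 5 genes in the hippocampus and 3, 2, 2 and 1 in the neocortex. Among all 14796 and 14930 genes tested there were 1635 and 1822. Of 78 mitochondrial ribosomal proteins, 1 was lower in each tissue. Median log2 differences of the mitochondrially encoded subunits were -0.015 in the hippocampus and -0.107 in the neocortex.

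Between tissues in WT, 4 of 45 tested assembly factors were higher in the hippocampus and 1 lower, beside the 16.6% and 16.9% of all genes. The higher ones included Sdhaf4 (0.42 ± 0.13, adjusted p = 0.019), which serves complex II, and Taco1 (0.26 ± 0.10, adjusted p = 0.047), a translational activator of a mitochondrially encoded complex IV subunit. Atpaf1, a chaperone for the F1 part of the ATP synthase, was lower (-0.32 ± 0.05, adjusted p = 3.2e-05). Ppargc1a, a coactivator of mitochondrial biogenesis, was lower (-0.29 ± 0.09, adjusted p = 0.014) and the other 11 regulators did not pass. In the citric acid cycle list 4 of 17 genes were higher, among them Dlat (0.21 ± 0.04, adjusted p = 9.7e-05), the acetyltransferase of pyruvate dehydrogenase, and 1 was lower, Suclg2 (-0.16 ± 0.06, adjusted p = 0.048). The 29.4% of this list that passed in either direction is near the 33.5% of all genes.

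The promoters of the subunit genes share sequence elements that the choice by symbol did not use. RefSeq promoter windows of 300 bases (GRCm38.p6) were found for 68 of the 84 different symbols and were searched on both strands for 4 motifs. The core of the NRF1 motif, CGCANGCG, occurred in 25 of the 68 (36.8%) and in 9.22% of all 27025 genes. The ETS core CCGGAAG, read by GABP, occurred in 16 (23.5%, against 9.93%), and the YY1 motif AAGATGGC in 10 (14.7%, against 3.19%). The GC box GGGCGG occurred in 28 (41.2%), near the 38.2% of all genes. NRF1 cores were found in 10 genes of complex I, 2 of complex II, 3 of complex III, 1 of complex IV and 9 of complex V, and YY1 motifs in 7 of complex I and 3 of complex V. Examples from genes described above are printed with the motif in capitals and read on the gene's strand, to show the motif in its place near the start site.
Atp5h, NRF1 core, chr11:115420042-115420069, minus strand: accccgacggCGCAGGCGccgcgcccgc
Uqcr10, NRF1 core, chr11:4704326-4704353, minus strand: ttgggttctaCGCAAGCGcagtggcgcg
Ndufa12, NRF1 core in reverse, chr10:94198906-94198933, plus strand: tccagctctgCGCCTGCGtagaacgacc
Atp5e, ETS core in reverse, chr2:174464187-174464213, minus strand: acggccacagCTTCCGGtagccgctcg
Ndufa3, YY1 motif, chr7:3617385-3617412, plus strand: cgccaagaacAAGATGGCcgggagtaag
A gene without a match lacks these letters in this window, and nothing follows from that about the factor. Nrf1 itself did not differ between genotypes at the adjusted threshold in either tissue.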

How the data were processed

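RNA-seq of 20 samples was analysed. The authors quantified stranded mRNA libraries with kallisto, and the deposited files give estimated counts per transcript and, also as deposited by the authors, TPM. The submitters' processing notes name kallisto and DESeq2 and the build GRCh38, although the samples are mouse and the paper names an Ensembl mouse transcriptome. Of 115270 transcripts, a GENCODE annotation of GRCm38 covered 113580, and the 1690 others (at most 0.56% of the counts of a sample) were left out. Estimated counts were summed per gene and rounded to whole numbers.

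Differences were tested in R 4.3.3 with edgeR 4.0.16 (default filter, TMM, quasi-likelihood test) on all genes, with Benjamini-Hochberg adjustment over all genes tested and a threshold of 0.05. Genotypes were compared within a tissue, and tissues and the interaction in a fit of all 20 samples. Log2 values are from this fit, levels are TPM or TMM-normalised CPM, and errors are SD or SE as given. Counting error at this depth is small for most members, and depth limits those under about 10 TPM. Shares were tested with exact permutation tests in Python 3.11.15 with numpy 2.4.6, pandas 2.3.3 and scipy 1.17.1. Copies were found with BLAST 2.17.0. The genotype fits were tested on simulated counts.

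The alternatives were all 20 samples or those of a single genotype in a fit, DESeq2's size factors, mitochondrial genes left out, no filter, 10 counts in every sample, the Wald test of DESeq2 1.42.0, transcript-length offsets, protein-coding transcripts only, limma 3.58.1 on log2(TPM + 1), the replicate block, each sample left out, shares of counts, and other scalings of the sums. Pseudogene counts added to the parent, and leaving out miR-324-null hippocampus samples 1 and 2, were chosen after seeing the data.

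The members and all lists were chosen with earlier results of these data known. Genes named are the 5 smallest p values of each genotype comparison, the 6 largest rises and falls that passed between tissues in WT, the paired forms, the 5 highest and 5 lowest levels, members on chromosome 11, and Ndufa2, except 1 gene of complex I that is counted but not reported here by name. Atp5l, Ndufa13, Ndufs3, Cox6c and Cox7c, the ends of the level range of each complex, the promoter and pseudogene examples and the Atp5g1 transcripts were named after their values were seen. Protein sequences were not used here.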

Additional observations from a re-analysis of the deposited data

Results flagged for a closer look

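In each group of 5 samples the highest and the lowest value was compared with its nearest neighbour, relative to the range of the group, for the named genes in TPM and for the shares. Of 216 groups, 15 (6.94%) had a value beyond the 95% limit, where chance gives about 1 in 20. Each of the following stands apart from the other samples of its group. In WT hippocampus sample 5, Atp5b was at 1977 TPM and Ndufa2 at 201 TPM, both high. In WT hippocampus sample 3, Atp5e was low at 343 TPM, Cox8b was high at 20.1 TPM with a share of 1.52%, the share of Cox6b2 was high at 2.65%, and the second Atp5o gene was at 0.725 TPM with 0 in the others. In WT neocortex, Atp5g3 was high at 431 TPM and the second Atp5o gene was at 1.53 TPM in sample 1, Cox6b1 was high at 776 TPM in sample 3, and Atp5h was high at 606 TPM in sample 4. Atp5e was low at 239 TPM in miR-324-null neocortex sample 4. In miR-324-null hippocampus sample 5 the shares of Cox7a1 (2.03%), Cox6b2 (2.51%) and Atp5g1 (44%) were high.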

How the results depend on the processing

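Between genotypes and for the interaction, 0 subunit genes passed under every alternative run, each sample left out included. The median genotype difference in the hippocampus ran from 0.003 to 0.070 with a sample left out, and was -0.054 without miR-324-null hippocampus samples 1 and 2. In the neocortex it ran from -0.003 to 0.039. The tissue count in WT (21) was 12 with the transcript-length offset, 11 with protein-coding transcripts only and 13 with limma, and 8 to 21 with a sample left out (medians 0.099 to 0.134). In null samples (32) it was 14 with limma, 18 with samples of a single genotype, and 14 to 39 with a sample left out (medians 0.097 to 0.190). Without miR-324-null hippocampus samples 1 and 2 it was 6, with a median of 0.041. The causes of these changes were not tested, and fits with a sample left out also hold fewer samples. In null samples the tissue difference turned to -0.16 for Ndufa3 and -0.14 for Ndufc1 with protein-coding transcripts only, and to -0.06 for Uqcrc2 with limma on TPM, where the median of all genes was -0.066. Log2 ratios of the summed TPM ran from 0.02 to 0.07 (genotype, hippocampus), 0.02 to 0.06 (genotype, neocortex), 0.06 to 0.09 (tissue, WT) and 0.05 to 0.10 (tissue, null) with a sample left out. Shares gave 0 calls throughout, which says little, because groups without overlap also stayed above the threshold. Over all genes, the deviations of same-numbered samples of the tissues correlated at -0.13 to 0.11 in WT and at 0.20, -0.03, 0.15, 0.22 and 0.09 in null samples. Between genotypes they correlated at -0.23 to 0.18. In these comparisons 2, 3, 1 and 1 of 5 samples correlated best with their own number. Such correlations cannot decide whether a number is a mouse, and Ndufa12 and some pseudogenes followed the numbers. The main fits did not pair samples. If the numbers are mice, the tissue and interaction tests leave that pairing out. With the replicate block the tissue counts were 16 in WT, 14 of them shared with the fit without it, and 31 in null samples, and genotype counts stayed at 0. Of the other values compared, 5156 kept their direction and side of the threshold, 124 lost and 21 gained significance.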
